A study of Mus musculus with 21 samples.

Results

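The mitochondrial ribosomal protein genes were followed in 21 RNA-seq libraries of Lgr5 cells sorted from mouse intestine. The members are the genes of the deposited TPM table whose symbol begins with Mrpl or Mrps and a digit, leaving out names with -ps. They number 76 of 37310 genes, 47 named Mrpl and 29 named Mrps, and 4 -ps rows were left out. The 21 libraries form 7 groups of 3, and 75 of the 76 genes passed the filter on low counts that left 16050 genes tested.

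All mice carried the Lgr5EGFPcre-ERT2 allele, which drives the green reporter from the Lgr5 locus, and kept their diet from weaning until they were 3 months old. NWD1VitD mice ate the NWD1 diet with 2.3 IU of vitamin D per g. NWD1Ca mice ate NWD1 with calcium at 7.0 mg per g, a dose the labels give per g of body weight. NWD2 and NWD1 mice ate diets of those names, whose makeup the labels leave out. AIN_VdrKO mice are labelled vitamin D receptor knock out and ate the purified AIN76A diet. AINlowVitD mice ate AIN76A with 0.11 IU of vitamin D per g, and AIN mice ate AIN76A. The NWD1Ca mice were all female, the AIN_VdrKO mice all male, and the other groups mixed. The cells with the brightest reporter signal were collected in bulk, so a library can hold other cells that kept the reporter protein, and fewer cells of a type cannot be told apart from less RNA per cell. The labels do not say whether a library is 1 mouse, so the p-values measure the spread between these libraries, which may be partly technical.

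Mitochondria translate the few membrane subunits of the respiratory chain that their own genome encodes, on ribosomes of their own. The RNAs of these mitoribosomes are copied from mitochondrial DNA, whereas their proteins are encoded in the nucleus, made in the cytosol and imported. Some of these proteins have bacterial counterparts and others are found only in mitochondria, and in the intestinal stem cell the organelle supports the energy supply of a tissue that renews itself continuously.

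Gene counts ranged from 19889795 to 115435120 per library, and the members held 0.477% to 1.28% of them. The libraries fell into sets. Mitochondrial rRNA held 2.95% to 5.07% of counts in the 9 libraries of NWD1VitD, NWD1Ca and AINlowVitD (the second set), against 0.234% to 0.965% in the 9 libraries of NWD2, NWD1 and AIN (the first set). The 10 most abundant genes held 14.1% to 20.5% in the second set, against 5.33% to 8.37% in the first. The AIN_VdrKO libraries lay between on both, at 1.38% to 2.80% and 8.62% to 13.5%. Over the 9 Lgr5 stem cell markers, all above 0 in every library, the summed level was 1811 to 3969 TPM in AIN_VdrKO, 294 to 1135 TPM in the second set and 1363 to 12195 TPM in the first set. The 9 enterocyte markers summed to 16896 to 22375 TPM in AIN_VdrKO, 23690 to 74851 TPM in the second set and 4358 to 39501 TPM in the first set. For the 8 goblet markers these ranges were 22839 to 40762, 75755 to 132371 and 33819 to 80085 TPM, and for the 6 Paneth markers 28822 to 90146, 21252 to 117456 and 11102 to 40658 TPM. The 6 leukocyte markers, of which 1 was above 0 in every library, stayed at 24.9 TPM or less in sum, and the 6 of fibroblasts and endothelium at 1.2 TPM or less. Spike-in RNAs held 24.7% and 20.4% of the counts of NWD1 1 and NWD1 2 and 1.35e-05% of those of AIN 2. In AIN_VdrKO the libraries still held 7353, 11070 and 34677 Vdr counts, and the Vdr log2 fold change against AIN was −0.56 ± 0.37 (SE, adjusted p = 0.348). The labels do not say which part of the gene is deleted, so these counts do not check the genotype. A comparison across the sets changes diet and set together, and these cannot be told apart. AIN_VdrKO lies between the sets, so its comparisons change the labelled genotype together with these shares, which cannot be told apart either.

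TPM divides each count by gene length, so it is the scale used to compare genes with each other. The most abundant member was Mrpl42, with a median of 737 TPM over the 21 libraries and a range of 458 to 1400 TPM. Mrpl52 followed with 605 TPM (221 to 1672), Mrpl34 with 419 TPM (215 to 812), Mrpl36 with 308 TPM (166 to 471) and Mrps16 with 307 TPM (149 to 506). The ranges of the 5 overlap, and all except Mrps16 belong to the large subunit. At the low end stood Mrps34 at a median of 7.3 TPM (3.98 to 20.2), then Mrps10 at 14.3, Mrpl19 at 15.0 and Mrps25 at 16.6 TPM. Of these, Mrps34, Mrpl19 and Mrps25 share 77.8%, 36.0% and 69.8% of their exon bases with another coding gene in the GENCODE vM21 annotation, and the library kit does not mark strand, so their levels are uncertain. Mrpl53 had 0 to 4 counts in a library and was not tested; 88.0% of its exon bases overlap another coding gene, Gm42688. The other tested members had at least 171 counts in every library.

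**Figure D1:**
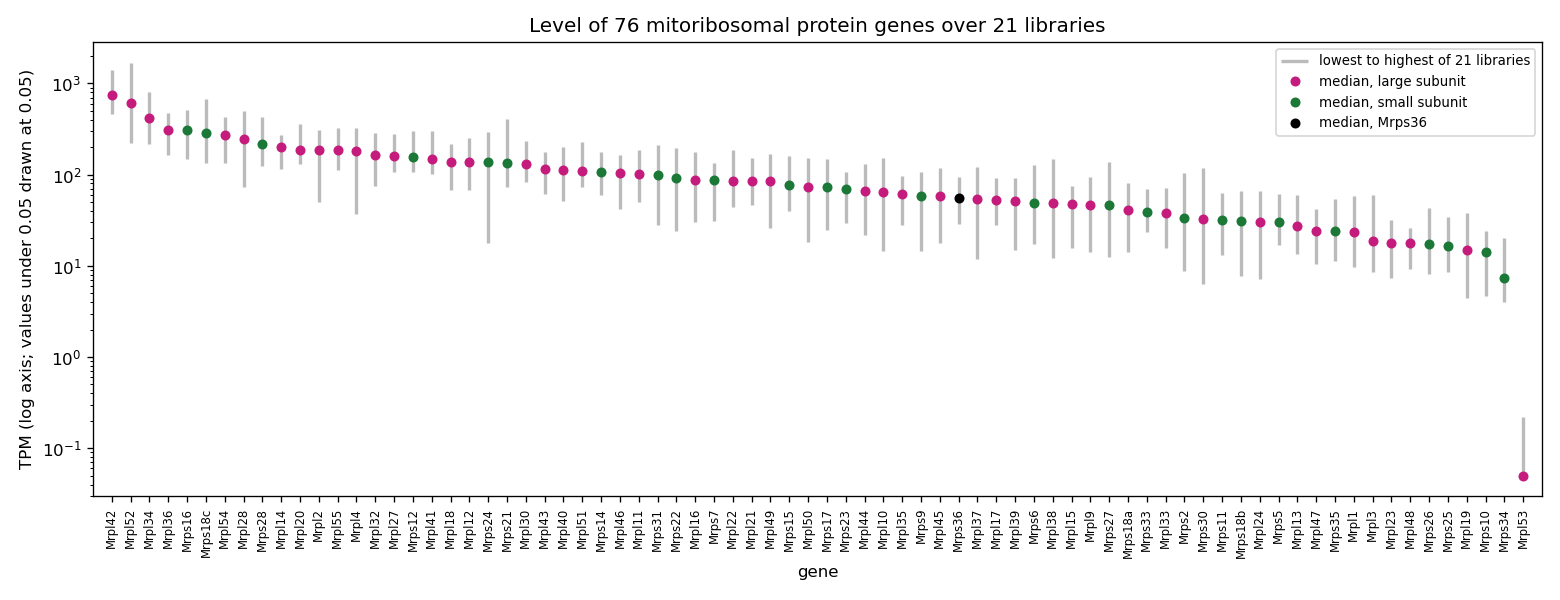
Level of each of the 76 genes in TPM (log axis), ordered by the median over 21 libraries; a point is the median, a bar runs from the lowest to the highest library, and colour gives the subunit. Mrpl42 leads with a median of 737 TPM, and Mrpl53 is near 0 throughout.

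Members did not keep fixed proportions across libraries. On log2 CPM (read counts relative to a TMM-scaled library total), the scale used to compare libraries, Mrps24 had the largest SD over the 21 libraries (1.82), followed by Mrpl52 (1.63) and Mrps21 (1.54), and Mrpl44 (0.27), Mrpl39 (0.28) and Mrps23 (0.28) had the smallest. The ratio of 2 members in a library does not depend on the scaling. The Mrps21 to Mrpl10 ratio of CPM was 9.25, 11.2 and 10.9 in NWD1VitD, 10.7, 10.3 and 9.58 in NWD1Ca, 0.494, 0.578 and 0.509 in NWD2, and 0.72, 0.575 and 0.436 in NWD1. It was 3.9, 1.07 and 0.982 in AIN_VdrKO, 10.7, 11 and 9.81 in AINlowVitD, and 0.969, 1.07 and 0.509 in AIN. Every library of the second set lay above every library of the first set, and AIN_VdrKO 1 lay between them. This pair was picked after its values were seen, so the ratio is a description. The summed small-subunit CPM divided by the summed large-subunit CPM was 0.425 to 0.444 in AIN_VdrKO, 0.461 to 0.512 over the second set, and 0.376 to 0.437 over the first. The second and first sets do not overlap on this ratio, but a sum of CPM weighs the most abundant genes most. The small subunit's median log2 fold change was 0.30 in NWD1VitD against NWD1, 0.65 in NWD1Ca against NWD1 and 0.49 in AINlowVitD against AIN. The large subunit's was 0.46, 0.77 and 0.42. By median the small subunit thus stood higher in AINlowVitD against AIN alone.

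**Figure D2:**
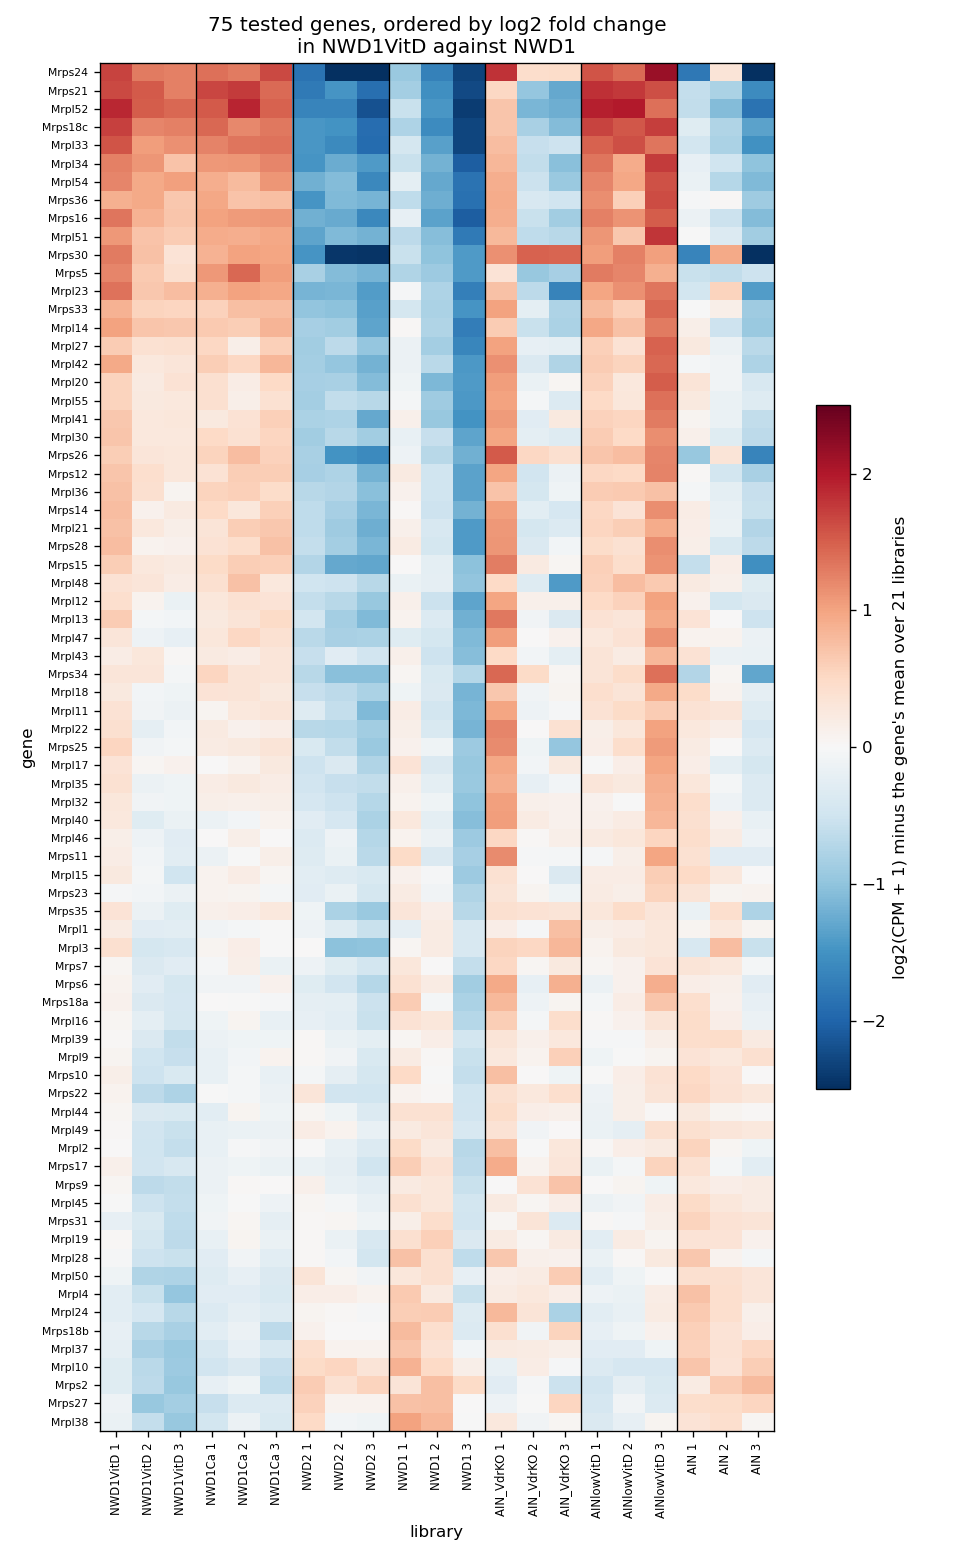
Log2(CPM + 1), TMM-scaled, of the 75 tested members (rows) in 21 libraries (columns, grouped), each gene centred on its mean over the libraries and genes ordered by the NWD1VitD against NWD1 fold change; colour gives the difference from that mean. Genes such as Mrps24, Mrpl52 and Mrps21 are high in NWD1VitD, NWD1Ca and AINlowVitD, and genes such as Mrpl10 and Mrps2 are low there.

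In NWD1VitD against NWD1, the comparison that asks what vitamin D added to NWD1 does, 24 members were higher and 8 lower among 75 (edgeR quasi-likelihood F test, adjusted over 16050 genes, threshold 0.05). Of all genes tested, 19.9% were higher and 20.6% lower. The members' median log2 fold change was 0.45, against −0.03 over all genes. In NWD1Ca against NWD1, which asks the same of calcium, 29 members were higher and 4 lower, against 15.6% and 14.9% of all genes, and the median was 0.81 against −0.04. In AINlowVitD against AIN, which asks what less vitamin D does on the purified diet, 22 were higher and 4 lower, against 15.1% and 16.3% of all genes, and the median was 0.43 against −0.10. The comparisons of NWD1VitD and of NWD1Ca share the NWD1 libraries, so they are not independent of each other. The cell markers moved with these groups. Enterocyte markers summed to 35875 to 63835 TPM in NWD1VitD and 31141 to 54131 TPM in NWD1Ca, against 4358 to 8149 TPM in NWD1, and stem cell markers to 336 to 1135 and 480 to 760 TPM, against 5868 to 9688 TPM in NWD1. In AINlowVitD the enterocyte sum was 23690 to 74851 TPM, against 26441 to 39501 TPM in AIN, and the stem cell sum 294 to 877 TPM, against 1363 to 3695 TPM in AIN. The part of these markers in the members' changes was not tested.

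The balance of calls above was found with TMM scaling, which takes most genes as equal between libraries. With RLE factors, another scaling of the counts, 30 of 32, 31 of 33 and 25 of 26 called members kept their calls. The balance turned on the deposited TPM scale. The TPM analysis also differs in the test used, in the division by length and in a pseudocount. What turned the balance was not tested. With limma on log2(TPM + 1), 5 members were higher and 49 lower in NWD1VitD against NWD1, where 4.36% of all genes were higher and 60.3% lower. Counts were 11 and 33 in NWD1Ca against NWD1, where the shares of all genes were 5.15% and 51.5%, and 6 and 38 in AINlowVitD against AIN, where they were 4.57% and 45.9%. The TPM scale moved the median of all genes by −0.91, −0.75 and −0.55 in those comparisons. The members' medians on TPM were −1.08, −0.45 and −0.67, against −0.95, −0.78 and −0.65 over all genes, where the pseudocount shrinks the values of low genes. Of the 32, 33 and 26 members called on TMM scaling, 13, 15 and 10 kept their call on TPM and 9, 5 and 4 were called in the other direction. On both scales, 5 members were higher in all 3 comparisons (Mrps21, Mrpl52, Mrps18c, Mrps24 and Mrpl33) and 3 were lower (Mrpl10, Mrps2 and Mrps27). How many of all genes did the same is not given here.

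Single libraries moved these counts, and the shares of all genes in these fits are not given here. In NWD1VitD against NWD1, 13 members were higher without NWD1 3 and 15 without NWD1 2; 5 were lower without NWD1VitD 3 and 14 without NWD1 3. In NWD1Ca against NWD1, 11 were higher without NWD1 3; 1 was lower without NWD1 2 or NWD1Ca 3, and 2 without NWD1 1, NWD1Ca 1 or NWD1Ca 2. In AINlowVitD against AIN, 10 were higher without AIN 3, 11 without AINlowVitD 3 and 14 without AINlowVitD 1; 2 were lower without AIN 1, AINlowVitD 1 or AINlowVitD 3.

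**Figure D3:**
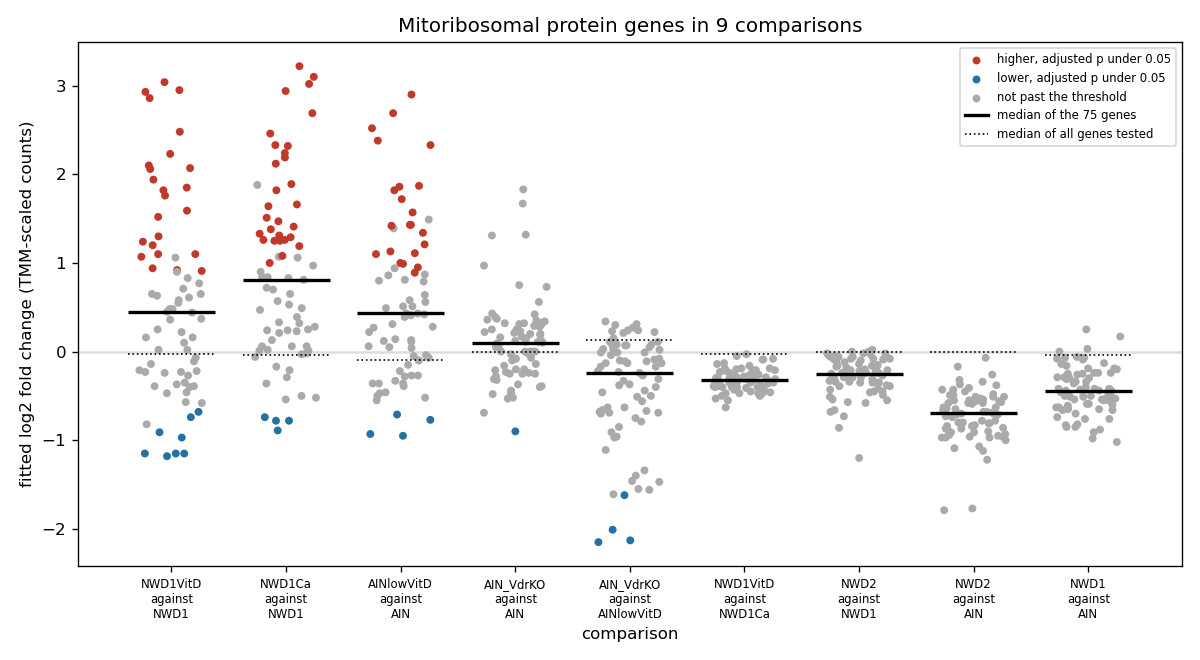
Fitted log2 fold changes (TMM-scaled counts) of the 75 tested members in 9 comparisons; a point is a gene, red points were higher and blue points lower at an adjusted p under 0.05, the solid bar is the median of the members and the dotted bar that of all genes. The members' medians are 0.45, 0.81 and 0.43 in NWD1VitD against NWD1, NWD1Ca against NWD1 and AINlowVitD against AIN; on TPM these medians are −1.08, −0.45 and −0.67.

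Of the members that were higher on both scales, Mrps21, Mrpl52, Mrps18c and Mrps24 are shown with the 300 bases around their start in RefSeq. The window runs from 250 bases before the start to 50 after it (build GRCm38.p6). These members were picked by their rise in these same data, and Mrpl33, also higher on both scales, is not shown. The lines are in lower case, 5′ to 3′ along the gene's strand, with matches to 3 motifs in capitals: CCGGAAG of the ETS family, GCATGCGC of NRF1 and AAGATGGC of YY1, on either strand (CTTCCGG, GCGCATGC and GCCATCTT). These factors are known as regulators of nuclear genes for mitochondrial proteins.
Mrps21 (chr3:95871465-95871764, − strand): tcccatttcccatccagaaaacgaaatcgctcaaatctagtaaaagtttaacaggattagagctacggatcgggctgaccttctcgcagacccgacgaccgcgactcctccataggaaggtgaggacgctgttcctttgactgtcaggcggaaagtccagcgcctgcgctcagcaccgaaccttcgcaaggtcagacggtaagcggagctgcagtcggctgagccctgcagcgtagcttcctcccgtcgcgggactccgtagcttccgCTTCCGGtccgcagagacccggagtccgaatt
Mrpl52 (chr14:54426659-54426958, + strand): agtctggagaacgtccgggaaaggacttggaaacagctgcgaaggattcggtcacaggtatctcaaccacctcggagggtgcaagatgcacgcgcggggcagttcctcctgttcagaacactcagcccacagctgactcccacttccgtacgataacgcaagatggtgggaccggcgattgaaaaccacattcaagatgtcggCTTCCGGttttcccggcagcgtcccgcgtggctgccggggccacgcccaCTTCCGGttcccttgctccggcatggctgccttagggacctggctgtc
Mrps18c (chr5:100798509-100798808, + strand): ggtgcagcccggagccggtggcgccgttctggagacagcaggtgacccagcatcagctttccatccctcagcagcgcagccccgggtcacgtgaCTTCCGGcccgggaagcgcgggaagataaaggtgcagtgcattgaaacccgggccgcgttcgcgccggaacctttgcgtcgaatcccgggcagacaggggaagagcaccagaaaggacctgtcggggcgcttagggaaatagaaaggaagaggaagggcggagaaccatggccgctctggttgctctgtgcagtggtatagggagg
Mrps24 (chr11:5707652-5707951, − strand): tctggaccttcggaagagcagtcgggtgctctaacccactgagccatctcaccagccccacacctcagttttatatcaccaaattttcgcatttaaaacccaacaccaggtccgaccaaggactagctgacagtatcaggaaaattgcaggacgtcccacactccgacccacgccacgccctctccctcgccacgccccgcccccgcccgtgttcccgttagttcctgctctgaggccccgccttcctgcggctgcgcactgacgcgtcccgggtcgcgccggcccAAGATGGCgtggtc
ETS matches lie in the Mrps21, Mrpl52 and Mrps18c windows and a YY1 match in the Mrps24 window; a match is a description of letters and not a binding site.

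Mrps21, the small-subunit counterpart of bacterial S21, had 442, 409 and 338 CPM in NWD1VitD, 451, 473 and 376 CPM in NWD1Ca, and 78.0, 48.2 and 28.6 CPM in NWD1. It had 500, 485 and 434 CPM in AINlowVitD, against 92.5, 80.7 and 46.4 CPM in AIN. No library of the first set reached the lowest of the second. The log2 fold change was 2.95 ± 0.44 (SE, adjusted p = 8.57e-05) in NWD1VitD against NWD1, 3.10 ± 0.49 (adjusted p = 0.000309) in NWD1Ca against NWD1 and 2.69 ± 0.43 (adjusted p = 0.00031) in AINlowVitD against AIN. On TPM the same differences were 1.44, 1.88 and 1.57. Its levels in NWD2, 40.6, 50.1 and 37.6 CPM, lay among those of NWD1 and AIN.

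Mrpl52, a mitochondria-specific protein of the large subunit, had 610, 472 and 447 CPM in NWD1VitD, 480, 618 and 458 CPM in NWD1Ca, and 112, 59.9 and 31.2 CPM in NWD1. The log2 fold changes were 2.93 ± 0.51 (adjusted p = 0.000311) and 3.02 ± 0.59 (adjusted p = 0.0013). In AINlowVitD it had 641, 658 and 430 CPM, against 108, 77.0 and 45.2 CPM in AIN, a log2 fold change of 2.90 ± 0.51 (adjusted p = 0.000626). The groups do not overlap in any of the 3. Mrps18c, the small-subunit counterpart of bacterial S18, had 705, 502 and 519 CPM in NWD1VitD, 583, 498 and 544 CPM in NWD1Ca and 127, 72.1 and 43.3 CPM in NWD1. Its log2 fold changes were 2.86 ± 0.44 (adjusted p = 0.000113) and 2.94 ± 0.49 (adjusted p = 0.000471). It had 704, 633 and 723 CPM in AINlowVitD, against 174, 128 and 84.5 CPM in AIN, where the log2 fold change was 2.38 ± 0.43 (adjusted p = 0.00073). Here too each group of the second set lay wholly above its partner.

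Mrps24, the counterpart of bacterial S3, shared the rise, with 1 AIN library apart from the rest. It had 288, 220 and 214 CPM in NWD1VitD, 230, 220 and 279 CPM in NWD1Ca, and 45.7, 26.9 and 17.0 CPM in NWD1. In AINlowVitD it had 266, 238 and 399 CPM, against 24.9, 111 and 12.3 CPM in AIN. The groups do not overlap, but AIN 2, the library with almost no spike-in counts, stood at several times the other AIN libraries; the part of that difference between libraries was not tested. The log2 fold changes were 3.04 ± 0.62 (adjusted p = 0.00101), 3.22 ± 0.71 (adjusted p = 0.00278) and 2.52 ± 0.62 (adjusted p = 0.00533), and the last was 3.97 without AIN 2. Of its exon bases 15.4% overlap the coding gene Urgcp. For Mrps18c 23.2% overlap genes that are not coding, and for Mrps21 and Mrpl52 the share is 0.0%. The calls of Mrps24, like those of Mrps21, Mrpl52 and Mrps18c, held without any single library in each of the 3 comparisons. Mrpl33, the counterpart of bacterial L33, averaged 421 ± 85.7 CPM in NWD1VitD and 438 ± 18.6 CPM in NWD1Ca, against 76.9 ± 47.2 CPM in NWD1, and 490 ± 46.4 CPM in AINlowVitD, against 96.0 ± 33.4 CPM in AIN (SD, n = 3 each). The groups do not overlap, and the log2 fold changes were 2.48 ± 0.42 (adjusted p = 0.000245), 2.69 ± 0.49 (adjusted p = 0.000783) and 2.33 ± 0.42 (adjusted p = 0.000715). Mrpl33 is not in the GENCODE vM21 annotation, so its exon overlap could not be read.

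Mrps30, which despite its name is a protein of the large subunit, had 64.9, 82.2 and 81.2 CPM in AIN_VdrKO, 61.2, 70.6 and 59.7 CPM in AINlowVitD, and 8.51, 57.2 and 4.03 CPM in AIN. AIN 2 stood near the other groups here too, again with its low spike-in share beside it. In AINlowVitD against AIN the log2 fold change was 1.49 ± 0.62 (adjusted p = 0.0741), and 3.35 without AIN 2 (adjusted p = 6.28e-05). Mrps30 had 72.4, 48.6 and 37.1 CPM in NWD1VitD, 53.8, 59.3 and 58.6 CPM in NWD1Ca, and 19.3, 13.9 and 10.2 CPM in NWD1. The groups do not overlap; the log2 fold change was 1.85 ± 0.62 in NWD1VitD against NWD1 (adjusted p = 0.0226), lost without NWD1 2 (0.0643), NWD1 3 (0.0988) or NWD1VitD 1 (0.0982). In NWD1Ca against NWD1 it was 1.88 ± 0.72 (adjusted p = 0.0537), and passed without NWD1 1 (0.0431).

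**Figure D4:**
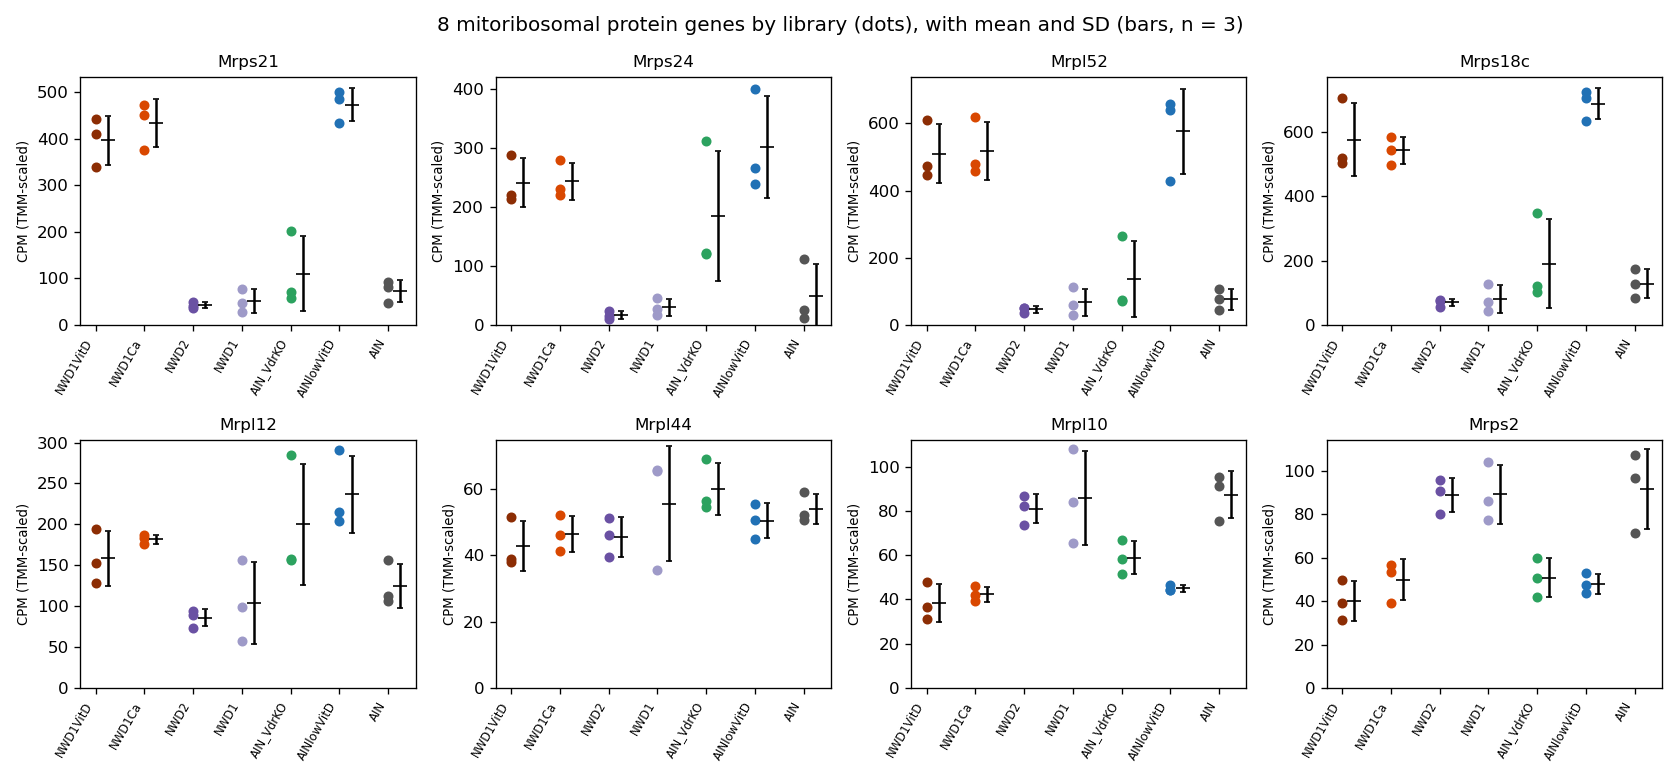
TMM-scaled CPM of 8 members in each of the 21 libraries, by group; a point is a library, and the bar beside it gives the group's mean and SD (n = 3), ending at 0 where it would go below. Every library of NWD1VitD, NWD1Ca and AINlowVitD lies above every library of NWD2, NWD1 and AIN for Mrps21, Mrpl52, Mrps18c and Mrps24, and below them for Mrpl10 and Mrps2; on TPM the first 4 also differ upward and the last 2 downward.

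The members that were lower on both scales in all 3 comparisons are Mrpl10, the base of the stalk that recruits translation factors to the large subunit, and the small-subunit proteins Mrps2 and Mrps27, a pentatricopeptide repeat protein. Their promoters, shown in the same way against those of the members that rose, hold an NRF1 match in Mrpl10, an ETS and a YY1 match in Mrps27 and no match in Mrps2.
Mrpl10 (chr11:97041332-97041631, + strand): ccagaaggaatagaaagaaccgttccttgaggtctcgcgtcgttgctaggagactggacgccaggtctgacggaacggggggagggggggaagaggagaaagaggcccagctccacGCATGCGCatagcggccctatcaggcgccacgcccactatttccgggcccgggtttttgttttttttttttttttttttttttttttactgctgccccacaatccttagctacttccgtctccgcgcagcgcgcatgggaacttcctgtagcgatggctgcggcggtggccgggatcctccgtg
Mrps2 (chr2:28467816-28468115, + strand): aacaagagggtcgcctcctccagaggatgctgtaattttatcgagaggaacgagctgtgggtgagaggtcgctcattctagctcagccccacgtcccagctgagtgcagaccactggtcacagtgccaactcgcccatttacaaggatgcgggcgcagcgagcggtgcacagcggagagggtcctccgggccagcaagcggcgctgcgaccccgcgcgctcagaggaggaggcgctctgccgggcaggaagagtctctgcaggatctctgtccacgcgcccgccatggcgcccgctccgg
Mrps27 (chr13:99344536-99344835, + strand): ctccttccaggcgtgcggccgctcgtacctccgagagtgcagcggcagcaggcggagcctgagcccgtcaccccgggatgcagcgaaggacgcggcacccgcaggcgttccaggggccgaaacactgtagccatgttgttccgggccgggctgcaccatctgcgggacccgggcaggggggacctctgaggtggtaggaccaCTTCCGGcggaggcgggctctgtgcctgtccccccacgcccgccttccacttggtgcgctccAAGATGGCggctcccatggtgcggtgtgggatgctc
A window with no match says only that these letters are not in it.

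Mrpl10 had 47.7, 36.6 and 31.1 CPM in NWD1VitD, 42.0, 46.0 and 39.3 CPM in NWD1Ca, and 108, 83.9 and 65.6 CPM in NWD1. In AINlowVitD it had 46.6, 44.1 and 44.2 CPM, against 95.5, 75.2 and 91.2 CPM in AIN. Every library of the second set lay below every library of the first. The log2 fold changes were −1.15 ± 0.21 (adjusted p = 0.000456), −0.89 ± 0.23 (adjusted p = 0.00829) and −0.95 ± 0.21 (adjusted p = 0.00275), and the calls held without any single library. Of the Mrpl10 exon bases 14.1% overlap genes that are not coding. Mrps2 had 49.9, 38.9 and 31.5 CPM in NWD1VitD, 53.5, 56.7 and 39.1 CPM in NWD1Ca, and 77.5, 104 and 85.9 CPM in NWD1. It had 43.8, 52.7 and 47.2 CPM in AINlowVitD, against 71.1, 96.6 and 107 CPM in AIN, again with no overlap. Its log2 fold changes were −1.15 ± 0.23 (adjusted p = 0.000968), −0.78 ± 0.25 (adjusted p = 0.0251) and −0.93 ± 0.23 (adjusted p = 0.00619). The call in NWD1Ca against NWD1 was lost without NWD1 2 (adjusted p = 0.0657), NWD1 3 (0.094) or NWD1Ca 3 (0.108). 

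Mrps27 had 47.9, 26.5 and 28.5 CPM in NWD1VitD, 34.8, 40.9 and 41.4 CPM in NWD1Ca, and 87.1, 89.2 and 52.9 CPM in NWD1. It had 38.9, 48.9 and 41.0 CPM in AINlowVitD, against 71.0, 72.3 and 76.9 CPM in AIN. The groups do not overlap in any of the 3, though NWD1 3 came close to NWD1VitD 1. Its log2 fold change was −1.15 ± 0.25 (adjusted p = 0.00161) in NWD1VitD against NWD1. It was −0.74 ± 0.28 in NWD1Ca against NWD1 (adjusted p = 0.048), lost without NWD1 1, NWD1 2 or any NWD1Ca library (0.0703 to 0.132). In AINlowVitD against AIN it was −0.77 ± 0.25 (adjusted p = 0.025), lost without AIN 1, AIN 2, AINlowVitD 1 or AINlowVitD 3 (0.0554 to 0.13). Of the Mrps27 exon bases 24.2% overlap genes that are not coding. Mrpl38, a mitochondria-specific large-subunit protein, was also lower in NWD1VitD against NWD1, at −1.18 ± 0.26 (adjusted p = 0.00172). In NWD1Ca against NWD1 it was at −0.78 ± 0.29 (adjusted p = 0.0464), lost without NWD1 1, NWD1 2 or any NWD1Ca library (0.0597 to 0.121), and in AINlowVitD against AIN at −0.47 ± 0.26 (adjusted p = 0.169).

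By role, the stalk proteins differed among themselves. Mrpl12, which sits on Mrpl10 and in human cells also binds the mitochondrial RNA polymerase, averaged 182 ± 5.22 CPM in NWD1Ca, against 104 ± 50 CPM in NWD1 (SD, n = 3 each), and 237 ± 47.5 CPM in AINlowVitD, against 125 ± 27.1 CPM in AIN. The log2 fold changes were 1.08 ± 0.34 (adjusted p = 0.0229) and 0.89 ± 0.30 (adjusted p = 0.0317). Both turned negative on TPM, at −0.16 and −0.24. The first call held without NWD1 1 or NWD1Ca 1 and was lost without NWD1 2, NWD1 3, NWD1Ca 2 or NWD1Ca 3 (adjusted p = 0.051 to 0.216); the second held only without AIN 1 (0.0625 to 0.159 without each other library). In NWD1VitD against NWD1 the log2 fold change was 0.65 ± 0.30 (adjusted p = 0.0898), with overlapping groups, and it passed without NWD1 1 (1.01, adjusted p = 0.0141). Mrpl11, at the stalk base beside Mrpl10, passed in none of the 3 with all libraries, at 0.48, 0.83 and 0.31, and passed in NWD1Ca against NWD1 without NWD1 1 (1.12, adjusted p = 0.0242). On TPM it was at −1.06, −0.43 and −0.78, the first and last called lower. So Mrpl10 and Mrpl12 were called in opposite directions in NWD1Ca against NWD1 and in AINlowVitD against AIN on TMM scaling.

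Members near the decoding and peptidyl transferase centres also differed in their changes. Mrps12, the counterpart of bacterial S12 at the decoding site, averaged 158 ± 23.6 CPM in NWD1VitD and 166 ± 17.2 CPM in NWD1Ca, against 85.7 ± 43.9 CPM in NWD1. Its log2 fold changes were 0.94 ± 0.37 (adjusted p = 0.0474) and 1.25 ± 0.42 (adjusted p = 0.0305), and 1.1 ± 0.37 (adjusted p = 0.0305) in AINlowVitD against AIN. On TPM they were −0.58, 0.01 and 0.00. The first was lost without NWD1 2, NWD1 3 or any NWD1VitD library (0.052 to 0.229), the second without NWD1 2, NWD1 3, NWD1Ca 2 or NWD1Ca 3 (0.0676 to 0.24), and the last without any library except AIN 1 (0.05 to 0.177). Mrps16, whose loss impairs mitochondrial translation in humans, had 277, 201 and 177 CPM in NWD1VitD, 222, 230 and 234 CPM in NWD1Ca and 94.3, 42.5 and 25.5 CPM in NWD1, with log2 fold changes of 2.06 ± 0.44 (adjusted p = 0.00144) and 2.33 ± 0.51 (adjusted p = 0.00264). In AINlowVitD against AIN its log2 fold change was 1.82 ± 0.44 (adjusted p = 0.00485). On TPM the differences were 0.59 (limma, adjusted p = 0.129), 1.16 (0.0128) and 0.73 (0.0763), so the call held there in NWD1Ca against NWD1 alone. Mrpl27, near the peptidyl transferase centre, had 1.3 (adjusted p = 0.0101) and 1.51 (adjusted p = 0.0126) in NWD1VitD and NWD1Ca against NWD1, both lost without NWD1 3 (0.0661 and 0.123), and 0.94 in AINlowVitD against AIN (adjusted p = 0.0645), which passed without AIN 1 (0.023). On TPM these differences were −0.22, 0.24 and −0.17, none past the threshold. Mrpl3, on the same subunit, passed in none on TMM scaling, at −0.07, 0.25 and 0.11, and was lower on TPM in NWD1VitD against NWD1 (−1.61, adjusted p = 0.00174).

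Members with other known roles mostly did not pass on TMM scaling. Mrpl45, which ties the large subunit to the inner membrane in mammals, had −0.46, 0.01 and −0.36 in NWD1VitD against NWD1, NWD1Ca against NWD1 and AINlowVitD against AIN. Mrpl44, mutated in a human cardiomyopathy, had −0.35, −0.06 and −0.10, Mrps7 had −0.11, 0.23 and −0.04, and Mrps22 had −0.27, 0.28 and −0.28, and none passed with all libraries. Without NWD1 3, Mrpl44 (−0.58, adjusted p = 0.0488) and Mrpl45 (−0.66, adjusted p = 0.0272) were lower in NWD1VitD against NWD1. On TPM limma called these 4 lower in all 3 comparisons, Mrpl45 at −2.01, −1.26 and −1.48, Mrpl44 at −1.89, −1.33 and −1.24, Mrps7 at −1.66, −1.06 and −1.16, and Mrps22 at −1.88, −1.04 and −1.42. Mrps34 passed in AINlowVitD against AIN alone, at 1.42 (adjusted p = 0.016), and was lost there without AIN 3 (0.106) or AINlowVitD 3 (0.101). Mrps36, now known as a subunit of the 2-oxoglutarate dehydrogenase complex and counted to neither subunit, averaged 78.7 ± 7.89 CPM in NWD1VitD and 77.5 ± 7.48 CPM in NWD1Ca, against 19.0 ± 8.26 CPM in NWD1. Its log2 fold changes were 2.07 (adjusted p = 0.000616) and 2.12 (adjusted p = 0.0021), and 1.43 (adjusted p = 0.0102) in AINlowVitD against AIN, lost there without AIN 3 (0.0726) or AINlowVitD 3 (0.0579). The annotation lists 3 -ps copies of Mrps36, which makes its counts uncertain.

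The Mrps18 paralogs, of which Mrps18c and Mrps18b belong to the small subunit and Mrps18a to the large, went apart. Mrps18a averaged 74.6 ± 16.1 CPM in NWD1VitD and 86.0 ± 1.14 CPM in NWD1Ca, against 89.3 ± 43.0 CPM in NWD1, and passed in none of the 3 on TMM scaling; on TPM it was lower in each, at −1.71, −0.99 and −0.97. Mrps18b averaged 23.9 ± 5.73 CPM in NWD1VitD, against 45.5 ± 17.0 CPM in NWD1, groups that overlap; its log2 fold change was −0.91 ± 0.27 (adjusted p = 0.0112), lost without NWD1 1 (0.0567) or NWD1VitD 3 (0.0665). In NWD1Ca against NWD1 and AINlowVitD against AIN it had −0.54 and −0.46 and did not pass. The Mrps18c to Mrps18b ratio, free of scaling, was 23.2, 23.4 and 26.3 in NWD1VitD, 20.0, 15.8 and 24.5 in NWD1Ca and 23.1, 19.3 and 18.9 in AINlowVitD. It was 7.39, 3.7 and 1.93 in AIN_VdrKO, 2.05, 2.14 and 1.59 in NWD2, 2.07, 1.52 and 1.57 in NWD1, and 3.22, 2.86 and 2.13 in AIN. Every library of the second set lay above all other libraries.

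On TMM scaling, 15 of 48 large-subunit members were higher and 5 lower in NWD1VitD against NWD1, and 8 and 3 of 26 small-subunit members, where 19.9% and 20.6% of all genes were. The large subunit had 18 higher and 2 lower and the small 10 and 2 in NWD1Ca against NWD1, against 15.6% and 14.9% of all genes. Counts in AINlowVitD against AIN were 11 and 2 for the large subunit and 10 and 2 for the small, against 15.1% and 16.3%. On TPM the large subunit had 2 higher and 32 lower, 5 and 20, and 3 and 26 in these comparisons, and the small subunit 3 and 17, 5 and 13, and 3 and 12. The small-subunit members with a bacterial counterpart had medians of 0.80, 1.16 and 0.83 (16 genes), and the mitochondria-specific ones 0.06, 0.36 and 0.28 (10 genes). For the large subunit these medians were 0.48, 0.84 and 0.46 (30 genes) and 0.24, 0.55 and 0.17 (18 genes). All of these medians are negative on TPM. Across the 3 comparisons on TMM scaling, 18 members were higher in every one, 35 were called in none, and no member was called higher in one and lower in another. The matching counts over all genes are not given here, and all 3 comparisons cross the same sets. These counts therefore do not set the members apart from other genes. Besides Mrps21, Mrpl52, Mrps18c, Mrps24, Mrpl33, Mrps12, Mrps16 and Mrps36, the 18 are Mrpl14, Mrpl30, Mrpl34, Mrpl36, Mrpl41, Mrpl42, Mrpl51, Mrpl54, Mrps5 and Mrps33.

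Gene length moved with these changes. Relative length, read from the ratio of count to TPM and set to 1 for the median tested gene, had a median of 0.537 over the members, and 56 of 75 were shorter than the median gene. Of the 25 shortest members 15, 16 and 12 were higher and none lower by the edgeR test in NWD1VitD against NWD1, NWD1Ca against NWD1 and AINlowVitD against AIN, with medians of 1.1, 1.33 and 0.94 on TMM scaling, where 19.9%, 15.6% and 15.1% of all genes were higher. On TPM 2, 6 and 3 of these 25 were higher and 9, 5 and 9 lower, with medians of −0.43, 0.07 and −0.19. The 25 longest had medians of 0.02, 0.32 and 0.12. Across the 75 genes, which share libraries and are not independent, Spearman's rho between fold change and length was −0.35, −0.34 and −0.30, and across all genes −0.20, −0.23 and −0.21. When counts were corrected for length within each library, 20, 23 and 19 members were higher and 16, 3 and 5 lower, with medians of 0.19, 0.46 and 0.26. The shares of all genes after this correction are not given here. Mrps21 was then at 2.63, 2.77 and 2.44, Mrpl52 at 1.59, 1.52 and 1.51 and Mrpl10 at −1.29, −1.01 and −1. The 18 members higher in all 3 had a median relative length of 0.333 and the 35 called in none 0.708. What part of the changes goes with length, or with the marker levels and shares given above, was not tested beyond this correction.

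**Figure D5:**
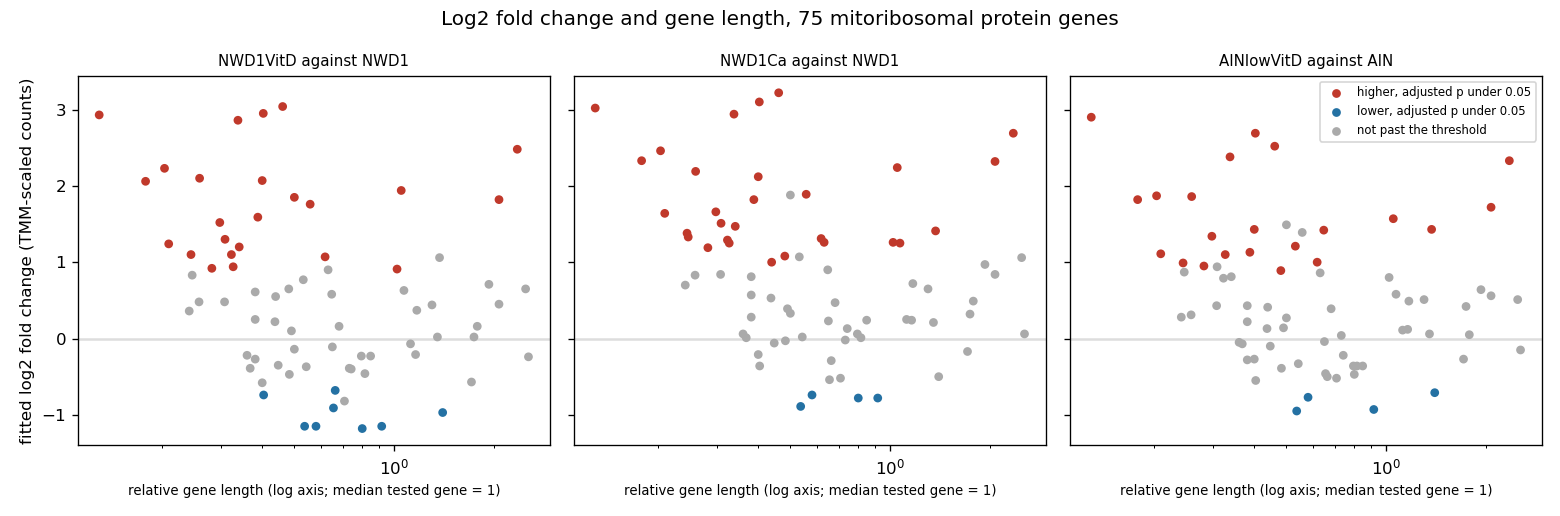
Fitted log2 fold change (TMM-scaled counts) of the 75 tested members against relative gene length (log axis, median tested gene at 1) in 3 comparisons; red points were higher and blue lower at an adjusted p under 0.05. Most red points lie at short lengths, while Mrpl33 and Mrps5 at the long end are also high; on TPM the members' medians are −1.08, −0.45 and −0.67.

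Motif matches were counted in all members with a RefSeq promoter, 67 of 76. A gene counted when any of its listed promoters held the letters. ETS letters were in 24 (35.8%), against 18.3% of the 10149 tested genes with a promoter and 9.93% of all 27025 genes with one. YY1 letters were in 12 (17.9%), against 4.79% and 3.19%, and NRF1 letters in 8 (11.9%), against 5.56% and 3.05%. At least 1 of the motifs was in 36 of the 67 members. It was in 12 of 17 members higher in all 3 comparisons, in 3 of 4 lower in at least 2, and in 15 of 31 called in none. These classes come from the calls above, and a link between motif and change was not tested.

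AIN_VdrKO against AIN sets the genotype labelled vitamin D receptor knock out beside the other mice on the purified diet. Here 0 members were higher and 1, Mrps2, lower by the edgeR test, against 7.44% and 5.09% of all genes, and 7 members had an unadjusted p under 0.05, against 27.4% of all genes. The members' median was 0.10, against −0.01 over all genes. By DESeq2 the counts were 4 and 2, given without the shares of all genes. On TPM, limma called Mrps24 and Mrps30 higher and 0 members lower, against 4% and 4.41% of all genes, and the members' median turned to −0.19, against −0.13 over all genes. Mrps2 had 50.6, 59.9 and 41.8 CPM in AIN_VdrKO, against 71.1, 96.6 and 107 CPM in AIN. The groups do not overlap, and the log2 fold change was −0.90 ± 0.25 (adjusted p = 0.0233), lost without AIN 3 (0.162) or AIN_VdrKO 3 (0.073). Mrps24 had 311, 121 and 122 CPM in AIN_VdrKO, all above the 24.9, 111 and 12.3 CPM in AIN, with a log2 fold change of 1.67 ± 0.71 (adjusted p = 0.129). Without AIN 2 it was 3.00 (adjusted p = 0.000984), that of Mrps30 3.51 (8.73e-05), and 5 members were higher and 2 lower; 1 was higher without AIN_VdrKO 3. None was lower without AIN 3 or AIN_VdrKO 3. These counts too stand without the shares of all genes.

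In AIN_VdrKO against AINlowVitD, which sets the labelled knock out beside less dietary vitamin D, 0 members were higher and 4 lower, against 0.685% and 2.38% of all genes. The median was −0.24, against 0.13 over all genes, and 14 members had an unadjusted p under 0.05, against 20.2% of all genes. Mrps5, a small-subunit protein, had 166, 67.6 and 73.8 CPM in AIN_VdrKO, against 324, 307 and 246 CPM in AINlowVitD (log2 fold change −1.62 ± 0.35, adjusted p = 0.0154). Mrps21 had 202, 71.8 and 57.1 CPM in AIN_VdrKO, against 500, 485 and 434 CPM in AINlowVitD (−2.13 ± 0.46, adjusted p = 0.0157). Mrps18c had 349, 122 and 102 CPM, against 704, 633 and 723 CPM (−2.01 ± 0.46, adjusted p = 0.0218), and Mrpl52 had 266, 73.9 and 70.5 CPM, against 641, 658 and 430 CPM (−2.15 ± 0.55, adjusted p = 0.0386). No group pair overlaps, and AIN_VdrKO 1 was the highest of its group in all 4. All 4 are among the 18 members higher in every one of the comparisons across the sets. Mitochondrial rRNA held 1.38% to 2.80% of counts in AIN_VdrKO, against 2.95% to 3.85% in AINlowVitD of the second set. Genotype, diet and set thus change together here and cannot be told apart. Without AIN_VdrKO 1, 25 members were lower. None was lower without AIN_VdrKO 2 or AIN_VdrKO 3, 1 without AINlowVitD 3 and 2 without AINlowVitD 1. The shares of all genes in these fits are not given here. Without AINlowVitD 2, Mrpl52 alone of the 4 lost its call (adjusted p = 0.0649). On TPM, 26 members were higher and 3 lower, against 30.1% and 2.02% of all genes, with a median of 0.64, against 0.63 over all genes.

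Within the first set, no member passed. In NWD2 against AIN the edgeR test called 0 of 75 members and 0 of 16050 genes. DESeq2 and limma on TPM also called 0 members, and the members' median on TPM was −0.22, against 0.24 over all genes. The log2 fold change was below 0 in all 75, from −1.79 to −0.07, with a median of −0.69, against 0.00 over all genes, and 42 had an unadjusted p under 0.05, against 6.85% of all genes. Mrpl18, a central protuberance protein of the large subunit, had the smallest p, with 83.8, 78.8 and 72.2 CPM in NWD2, all below the 172, 134 and 107 CPM in AIN (−0.93 ± 0.28, adjusted p = 0.718). Mrpl47, at the exit of the peptide tunnel, was next, with 31.7, 28.7 and 29.1 CPM in NWD2, against 54.2, 54.2 and 46.2 CPM in AIN (−0.91 ± 0.28). Of the Mrpl47 exon bases 24.2% overlap the coding genes Actl6a and Ndufb5. Without AIN 3, 16 members were lower (Mrpl18 −1.26, adjusted p = 0.0254), and without AIN 1, AIN 2 and NWD1 1 the median was −0.05. The share of all genes lower without AIN 3 is not given here. NWD1 against AIN gave 0 members by edgeR, DESeq2 and limma, against 0.106% of all genes higher and 0.66% lower by edgeR, and 1.15% and 0.293% by limma on TPM. The median on TPM was 0.00, against 0.25 over all genes. Enterocyte markers summed to 4358 to 8149 TPM in NWD1, against 26441 to 39501 TPM in AIN, and stem cell markers to 5868 to 9688 TPM, against 1363 to 3695 TPM; their part in the result was not tested. The median on TMM scaling was −0.44, and 11 members, all lower, had an unadjusted p under 0.05, against 15.2% of all genes. Mrpl18 had the smallest p here too, with 117, 96.9 and 55.5 CPM in NWD1, against 172, 134 and 107 CPM in AIN, groups that overlap (−0.76, adjusted p = 0.196). Over single left-out libraries the members' median ranged from −0.77 without AIN 3 to −0.14 without NWD1 3; it was −0.94 without NWD1 1 and NWD1 2. NWD2 against NWD1 gave 0 members by all 3 tools, against 0% of all genes higher and 0.00623% lower by edgeR and 0.0374% and 0.131% by limma on TPM. Of the members 0 and of all genes 10.7% had an unadjusted p under 0.05. The members' median there was −0.25, Mrpl38 had the smallest p (−0.51, adjusted p = 0.493) and Mrps30 the next (−1.20, adjusted p = 0.496).

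Within the second set, NWD1VitD against NWD1Ca sets the 2 additions to NWD1 side by side, and neither edgeR, DESeq2 nor limma called a member. By edgeR 0 genes passed in all, and 0 members and 2.32% of all genes had an unadjusted p under 0.05. The log2 fold change was below 0 in all 75, from −0.63 to −0.03, with a median of −0.32, against −0.03 over all genes. Mrpl47 had 63.5, 46.3 and 44.0 CPM in NWD1VitD, against 62.6, 73.9 and 66.9 CPM in NWD1Ca (−0.63, adjusted p = 1), groups that overlap. The summed CPM of the members was 12049, 9041 and 8571 in NWD1VitD and 10343, 10686 and 10740 in NWD1Ca. NWD1VitD 1 lay above every NWD1Ca library, and NWD1VitD 2 and NWD1VitD 3 lay below them all. On TPM the members' median was −0.59, against −0.17 over all genes. A p that misses the threshold does not show that these diets act alike.

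The machinery around the mitoribosome was read from lists of other genes, with counts on TMM scaling to be read against the shares of all genes: 19.9%, 15.6% and 15.1% higher and 20.6%, 14.9% and 16.3% lower in the 3 comparisons in turn. Of 7 mitoribosomal proteins under other names, 2, 3 and 3 were higher and 2, 1 and 1 lower in NWD1VitD against NWD1, NWD1Ca against NWD1 and AINlowVitD against AIN, with medians of 0.46, 0.71 and 0.49. Mrp63, a large-subunit protein, had 2.5, 2.61 and 2.41 there (adjusted p = 0.000164, 0.000638 and 0.000435). Chchd1, of the small subunit, had 2.35 and 2.60 against NWD1, and Gadd45gip1, of the large, had 2.1 in AINlowVitD against AIN. This list turned negative on TPM, with medians of −1.09, −0.55 and −0.62 and counts of 2 higher and 4 lower, 2 and 2, and 1 and 4. The other lists had negative medians on both scales, with more genes lower on TPM, where 60.3%, 51.5% and 45.9% of all genes were lower and their medians were −0.95, −0.78 and −0.65. Of 20 mitoribosome assembly factors, 11, 5 and 9 were lower and 0, 0 and 1 higher (medians −0.80, −0.50 and −0.63), and on TPM 19, 18 and 17 lower and none higher (−2.04, −1.59 and −1.61). Eral1, a chaperone of the small subunit's RNA, had −1.64, −1.39 and −1.52 (adjusted p = 7.76e-05, 0.000947 and 0.000267). Mrm1, a methyltransferase of the large subunit's RNA, had −1.89 and −1.53 against NWD1, and Mettl17 had −1.09 in AINlowVitD against AIN. Of 17 mitochondrial aminoacyl-tRNA synthetases, which load tRNAs for these ribosomes, 9, 7 and 8 were lower and 1, 2 and 1 higher (medians −0.95, −0.71 and −0.69), and on TPM 15, 14 and 13 lower and 1 higher in each (−2.06, −1.6 and −1.71). Sars2 had −1.68 in NWD1VitD against NWD1 and Pars2 −1.46 in AINlowVitD against AIN, whereas Lars2 had 4.92 ± 0.99 in NWD1Ca against NWD1. The highest value of a synthetase was 5.22 in NWD1VitD against NWD1 and 2.61 in AINlowVitD against AIN. Mitochondrial rRNA held 4.31% to 4.63% of counts in NWD1Ca and 3.53% to 5.07% in NWD1VitD, against 0.312% to 0.965% in NWD1. It held 2.95% to 3.85% in AINlowVitD, against 0.234% to 0.901% in AIN. Its part in these high values was not tested. Of 13 translation factors, 5, 0 and 3 were lower and 1 higher in each (medians −0.63, −0.29 and −0.40), and on TPM 11, 9 and 11 lower and none higher (−2.1, −1.52 and −1.47). Tufm, the elongation factor that delivers tRNAs, had −0.81 in NWD1VitD against NWD1 and −0.93 in AINlowVitD against AIN. Mtrf1l, a release factor, had 1.91, 2.12 and 1.5. Of 8 genes of mitochondrial transcription and mRNA binding, 5, 0 and 3 were lower and none higher by the edgeR test (medians −0.92, −0.64 and −0.86), and on TPM 8, 7 and 7 were lower (−2.32, −1.82 and −1.79). The median relative length was 0.906 for the assembly factors and 1.22 for the synthetases, against 0.537 for the members. In AIN_VdrKO against AIN, 1 of 13 translation factors (Taco1, −1.32) and 1 of 20 assembly factors (Eral1, −1.04) were lower. So was 1 of 8 genes of mitochondrial transcription and mRNA binding (Fastk, −0.89). None of the 17 synthetases or the 7 proteins under other names was, and 5.09% of all genes were lower. On TPM the first 3 of these lists again had 1 gene lower each, against 4.41% of all genes, and 1 assembly factor was higher.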

How the data were processed

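Bulk RNA-seq was measured in 21 libraries of 7 groups. The authors deposited whole-number read counts per gene, not normalised, and TPM values, which are those counts per gene length rescaled in each library. Per the submitters' processing notes, the tools were edgeR, HTSeq 0.6.1 and STAR 2.4.2a and the genome build was mm9; settings and annotation: not given in the sources used here. Per the labels' protocols, libraries were made with SMART-Seq v4 and Nextera XT. Groups came from the labels.

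From the counts, edgeR 4.0.16 (R 4.3.3) fitted all 21 libraries at a time: TMM scaling, filterByExpr by group, a mean per group and a sex term, the two-sided quasi-likelihood F test and Benjamini-Hochberg adjustment over 16050 genes, with 0.05 as the threshold. An adjusted p with no tool named is from this test. Standard errors are the log2 fold change over the root of F. Spike-ins stayed out. Alternatives were limma 3.58.1 on log2(TPM + 1), DESeq2 1.42.0, other scaling, no filter, no sex term, a replicate block, a length correction (lowess, span 0.3), fits of the groups compared alone, and left-out libraries. The fit was tested on simulated data. Exon overlaps were read from GENCODE vM21 (GRCm38), another build than the authors'.

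Members and lists were chosen with earlier results of these data known. Named are, per comparison, the 3 largest rises and falls among the members called, or the 2 smallest p-values. Further named are the 5 highest and 5 lowest by median TPM, the 3 most and least variable, 17 members by role, and per list the 2 called genes with the smallest p, of which 1 is not reported here. Replicate numbers were not taken to pair the libraries, and whether they do cannot be settled here. PCR copies carried no molecular identifiers. Replicates were distinct libraries, with a chi-square per degree of freedom of 48.1 or more.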

Additional observations from a re-analysis of the deposited data

How the results depend on the processing

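Counts are of members higher/lower by edgeR unless stated, and the cause of a shift was not tested. The shares of all genes under these settings are not given, so a shift may be one of all genes and not of the members alone. With limma on log2(TPM + 1), counts were 5/49 in NWD1VitD against NWD1, 11/33 in NWD1Ca against NWD1, 6/38 in AINlowVitD against AIN and 2/0 in AIN_VdrKO against AIN, and 26 were higher in AIN_VdrKO against AINlowVitD. On TPM these log2 fold changes reversed: in NWD1VitD against NWD1, Mrpl11 −1.06, Mrpl12 −0.89, Mrpl27 −0.22, Mrps12 −0.58, Mrps34 −0.88, Mrpl42 −0.34, Mrpl36 −0.62, Mrps25 −1.08, Mrps23 −1.45, Mrpl18 −1.01 and Mrpl47 −0.92; in NWD1Ca against NWD1, Mrpl12 −0.16, Mrpl45 −1.26, Mrps7 −1.06, Mrps22 −1.04, Mrps18a −0.99, Mrpl36 −0.04, Mrps10 −1.13, Mrpl39 −1.22, Mrps23 −0.87, Mrpl18 −0.28 and Mrpl47 −0.05; in AINlowVitD against AIN, Mrpl11 −0.78, Mrpl12 −0.24, Mrps18a −0.97, Mrpl36 −0.19, Mrps23 −1.0 and Mrpl18 −0.71; in AIN_VdrKO against AINlowVitD, Mrpl45 0.89, Mrps7 0.87, Mrps10 0.71 and Mrpl19 0.85. In AIN_VdrKO against AIN, counts were 4/0 without a filter, 8/2 without AIN 1, AIN 2 and NWD1 1, 4 higher without a sex term, 1/2 with the length correction, 4/2 by DESeq2, 2 lower with RLE factors and 0 lower in a fit of the 2 groups alone. In AIN_VdrKO against AINlowVitD, 12 were lower without a filter, 7 without a sex term, 10 by DESeq2 and 0 in a fit of the 2 groups. In NWD1Ca against NWD1, counts were 46/0 in a fit of the 2 groups, with 1 lower without a filter, 2 with RLE factors, 2 without AIN 1, AIN 2 and NWD1 1, and 0 without NWD1 1 and NWD1 2. In NWD1VitD against NWD1, 16 were lower with the length correction and 2 without NWD1 1 and NWD1 2. In AINlowVitD against AIN, counts were 34/2 without AIN 1, AIN 2 and NWD1 1, with 2 lower without a filter. Without a filter, 2 were lower in NWD2 against AIN and 1 in NWD2 against NWD1. Of the members called in NWD1VitD against NWD1, NWD1Ca against NWD1 and AINlowVitD against AIN, all were kept by DESeq2 and 27 of 32, 25 of 33 and 21 of 26 with the length correction, none turned. Leaving out 1 library gave 13 to 30 higher and 5 to 14 lower in NWD1VitD against NWD1, 11 to 36 and 1 to 3 in NWD1Ca against NWD1, 10 to 29 and 2 to 4 in AINlowVitD against AIN, 0 to 5 and 0 to 2 in AIN_VdrKO against AIN, 0 to 25 lower in AIN_VdrKO against AINlowVitD and 0 to 16 lower in NWD2 against AIN. Over 63 pairs of same-numbered libraries, the correlation of deviations ran from −0.30 to 0.49 and 19 exceeded 0.1, so the numbers were not taken to pair them. With the replicate block, counts were 29/10, 35/3 and 28/4 in the first 3 comparisons, with 2 lower in AIN_VdrKO against AIN and 10 lower in AIN_VdrKO against AINlowVitD. Mrpl53, with at most 4 counts in a library, did not pass the filter on low counts and was not tested. The part of its exon overlap with Gm42688 in these low counts was not tested either.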
